A study of Homo sapiens with 4 samples.

Results

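N6-methyladenosine (m6A) is a methyl mark that a nuclear writer complex adds to adenosines of mRNA, mostly near stop codons and in long exons. Reader proteins bind the marked stretch and affect splicing, export, translation and decay of the transcript, and the demethylase FTO removes the mark. The regions described here are m6A peaks of control cells that overlapped a peak of FTO knockdown cells and were longer than that peak. Antibody capture of m6A (MeRIP-seq) does not resolve single adenosines, so a peak marks a stretch where fragments from the immunoprecipitated (IP) RNA exceeded those from the input, and its edges mark where that excess was called to begin and end.

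The cells were RWPE1, an immortalized line of human prostate epithelium that carries papillomavirus genes. Control cells (Ctrl, called shCtrl here) carried the lentiviral vector control and knockdown cells (sh, called shFTO here) carried a vector with an shRNA against FTO, and both were kept as stable lines in puromycin. Whether a line came from 1 clone is not given in the sources used here. Each condition had 1 IP library and 1 input library, 4 in all, and gave 1 peak list on the hg19 genome. There is therefore no replicate, and the intervals below are 95% Wilson intervals for shares and binomial order-statistic intervals for medians, which cover counting error among peaks and not the spread between cultures.

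The pairs were chosen by the listed widths. A peak of the shCtrl list was paired with a peak of the shFTO list when they overlapped by 1 bp or more on either strand, and a pair was kept when each peak had exactly 1 partner. Of 10087 shCtrl and 10323 shFTO peaks, 1994 pairs remained, and the control peak was the wider one (end minus start) in 226 of them, or 11.3% of the pairs. The shFTO peak was wider in 654 pairs, or 32.8%, and the width was equal in 1114 pairs. Since the rule used the widths, these counts and every width below are descriptions and were not tested. No pair of the 226 had its peaks on different strands, 115 lay on the plus strand and 111 on the minus strand.

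Pairs of equal width form the outer side of the limit, and all 1114 also shared both edges. Just inside it, 10 of the 226 pairs differed by exactly 1 bp. The pair at chr1:8021714-8021853 (plus strand) was 140 bp wide in the control list and 139 bp in the shFTO list. The pair at chr1:12406662-12406704 (plus strand) measured 43 bp and 42 bp, and the one at chr1:44087606-44089272 (plus strand) 1667 bp and 1666 bp. On chromosome 11, the pairs at chr11:77348635-77348851 and chr11:82972633-82973008 (both minus strand) measured 217 bp against 216 bp and 376 bp against 375 bp. In these 5 pairs one edge was the same base in both lists and the other was 1 base off. Of all 10, the pair at chr7:134870496-134871050 (minus strand, 555 bp against 554 bp), picked after its values were seen, differed at both edges, by 17 bp and 18 bp. A further step away, 29 of the 226 pairs differed by 5 bp or less and 49 by less than 10 bp. On the far side of the limit, 8 pairs were wider in shFTO cells by 1 bp and 66 by less than 10 bp.

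The median width of the 226 pairs was above that of all listed peaks, as it was in the mirror class, and most differed little for their length. The control peak had a median width of 785 bp (interval 661 to 897 bp, range 38 to 3835 bp) and its partner in shFTO cells of 626 bp (514 to 684 bp, range 26 to 3553 bp). Over all peaks, the median width was 212 bp in the shCtrl list and 242 bp in the shFTO list. Pairs of equal width had a median of 187.5 bp. The median difference within the 226 pairs was 44.5 bp (interval 36 to 61 bp), with quartiles of 13 and 201.75 bp and a highest value of 1982 bp. As a ratio, the control peak was 1.08 times as wide at the median (1.07 to 1.13) and 7.81 times at most. The mirror pairs, wider in shFTO cells, were also long, with a median of 756 bp for the wider and 466.5 bp for the narrower peak. They had a larger median difference of 114 bp (96 to 137 bp) and a median ratio of 1.32 (1.26 to 1.38).

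**Figure D1:**
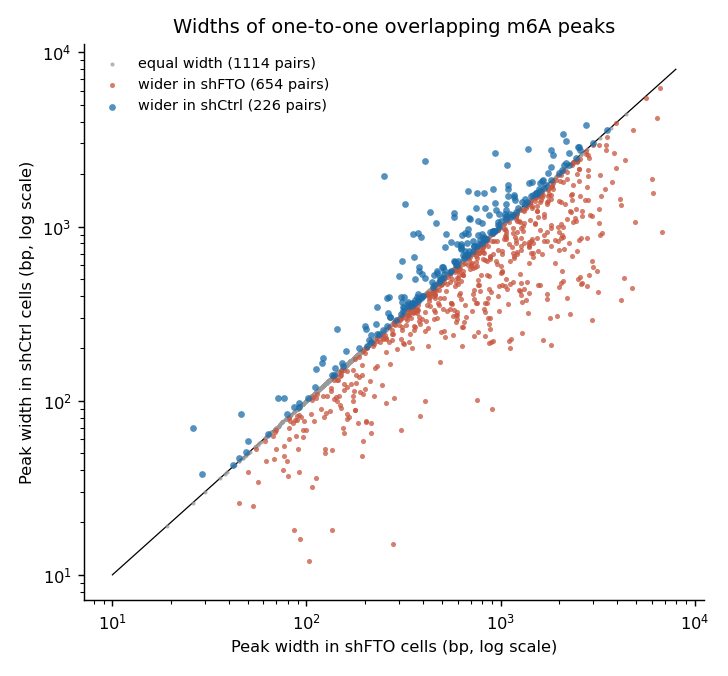
Width of each one-to-one pair in shCtrl cells (vertical) against its width in shFTO cells (horizontal), both in bp on log scales, with 1 point for each of 1994 pairs and a diagonal line of equal width. The 226 pairs wider in shCtrl cells (blue) mostly lie close to the diagonal, at a median ratio of 1.08, and few points lie far above it, while the 654 pairs wider in shFTO cells (red) spread further below it.

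Large differences were few. The control peak was wider by at least 25% in 69 of the 226 pairs, which is 3.46% of all pairs, against 358 pairs or 18% of all pairs in the opposite direction. It was at least 2 times as wide in 16 pairs. A difference of 100 bp or more was listed for 82 of the 226 pairs (36.3%, interval 30.3% to 42.7%), one of 500 bp or more for 24 and one of 1000 bp or more for 8. Among the 654 mirror pairs the share with 100 bp or more was 53.2% (49.4% to 57.0%). The shFTO peak covered a median of 91.6% of the control peak, at least 90% of it in 119 pairs and under 50% in 20 pairs. The lowest coverage was 3.26%. A low coverage can also come from a short peak inside a long one. In 224 of the 226 pairs the overlap was at least 50% of the shorter peak, so few pairs barely overlapped.

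Counted in bases, the 226 control peaks covered 215941 bp and their shFTO partners 175311 bp. Of these, 171918 bp were common to both, 44023 bp lay in the control peak alone and 3393 bp in the shFTO peak alone. The net difference of 40630 bp was uneven, as 20 of the 226 pairs held at least 50% of it and the 10 largest held 32.6%. The 654 pairs wider in shFTO cells had a net difference of 264109 bp, 6.50 times as much.

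The 8 pairs that differed by 1000 bp or more were of several shapes. At chr5:159820155-159822546 (minus strand) the control peak was 2392 bp wide and the shFTO peak 410 bp, the largest difference among the 226. The control peak reached 1367 bp further at the 5′ side and 615 bp further at the 3′ side, so the short peak sat in the interior of the long one. A like picture was seen at chrX:73751811-73753763 (plus strand), with 1953 bp against 250 bp and control stretches of 1026 bp and 677 bp on either side, the largest ratio among the 226. At chr16:4658884-4661524 (minus strand) the widths were 2641 bp and 931 bp, and most of the control stretch, 1539 bp, lay at the 3′ side.

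Other large pairs shared one edge. At chr15:78287327-78290109 (minus strand) both peaks ended at the same base on the 3′ side, and the control peak of 2783 bp began 1399 bp further upstream than the shFTO peak of 1384 bp. At chr1:175126870-175130282 (minus strand) and chr20:60868841-60871100 (plus strand) the 5′ edges were the same base instead. There the control peaks of 3413 bp and 2260 bp ran on by 1304 bp and 1180 bp past shFTO peaks of 2109 bp and 1080 bp. The pair at chr2:239358699-239360053 (plus strand), 1355 bp against 321 bp, began within 2 bases in both lists and ran on by 1032 bp in shCtrl cells. Just under 1000 bp, the pair at chr4:13603948-13606708 (minus strand) measured 2761 bp and 1828 bp and differed at the 3′ edge alone, by 933 bp.

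The pair at chr5:133914184-133918018 (plus strand) was the widest control peak among the 226, with 3835 bp, and was not nested. Its shFTO peak of 2748 bp began 1989 bp later and ended 902 bp later than the control peak. Its width difference of 1087 bp is thus the balance of a control stretch on one side and a shorter shFTO stretch on the other.

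**Figure D2:**
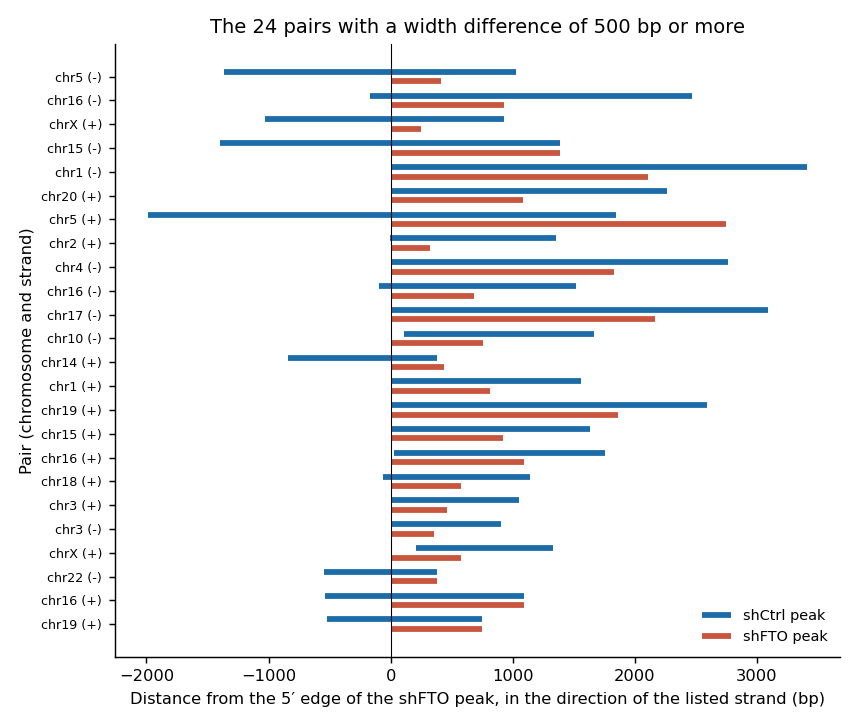
Extent of the shCtrl peak (blue) and the shFTO peak (red) of the 24 pairs with a width difference of 500 bp or more, from the largest at the top, with distance in bp from the 5′ edge of the shFTO peak in the direction of the listed strand. In 9 pairs the peaks begin together and only the 3′ edge differs, in 4 pairs only the 5′ edge differs, and in 11 pairs both edges differ.

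Which edge differed was not part of the rule. One edge was the same base in both lists in 183 of the 226 pairs (81.0%, interval 75.4% to 85.6%). Read along the listed strand, only the 3′ edge differed in 121 pairs (53.5%, 47.0% to 59.9%), only the 5′ edge in 62 (27.4%, 22.0% to 33.6%) and both edges in 43 (19.0%, 14.4% to 24.6%). Among pairs with a single differing edge, it was the 3′ edge in 66.1% (59.0% to 72.6%). This was 68.5% (58.3% to 77.2%) on the plus strand and 63.8% (53.8% to 72.8%) on the minus strand, so the 3′ edge was the more frequent one on either strand.

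The mirror pairs had nearly the same split. Among the 488 pairs wider in shFTO cells with a single differing edge, it was the 3′ edge in 66.0% (61.7% to 70.0%), and the interval of each class contains the value of the other. The single-edge stretches were short in both positions, with a median of 38 bp (29 to 55 bp) at the 3′ edge and 32.5 bp (13 to 44 bp) at the 5′ edge. In pairs wider in shFTO cells the corresponding medians were 100.5 bp (79 to 127 bp) and 51.5 bp (34 to 72 bp).

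**Figure D3:**
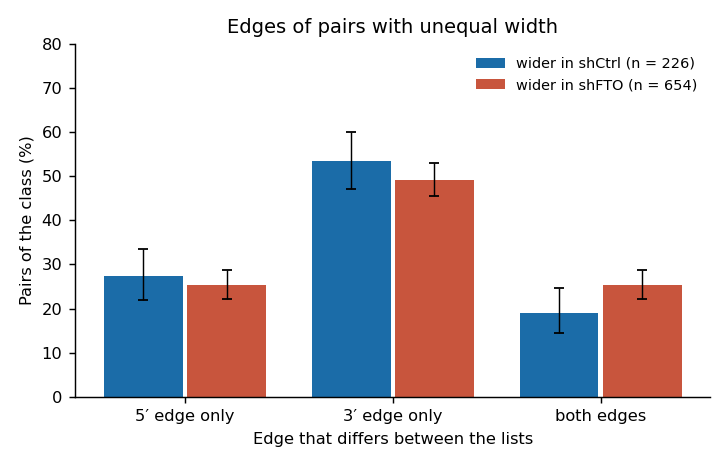
Share of pairs, in percent, in which only the 5′ edge, only the 3′ edge or both edges differ between the lists, for the 226 pairs wider in shCtrl cells (blue) and the 654 wider in shFTO cells (red), with 95% Wilson intervals as error bars. The 3′ edge alone differs most often in both classes, at 53.5% and 49.2%.

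A shared edge became less frequent as the difference grew. One edge coincided in 47 of the 49 pairs that differed by less than 10 bp, in 82 of the 95 pairs with 10 to 99 bp, and in 54 of the 82 pairs with 100 bp or more. In the last group both edges differed in 28 pairs. The mirror class had a like fall, with a coinciding edge in 62 of 66, 212 of 240 and 214 of 348 pairs at the same steps. The shFTO peak lay wholly within the control peak in 200 of the 226 pairs (88.5%, 83.7% to 92.0%). In the mirror class the control peak lay within the shFTO peak in 91.6% (89.2% to 93.5%). A pair of unequal width with a shared edge is always nested, so these shares mostly restate the shared edges. Where both edges differed, the shFTO peak lay within the control peak in 17 of 43 pairs (39.5%, 26.4% to 54.4%). The mirror count was 111 of 166 (66.9%, 59.4% to 73.6%), and these 2 intervals do not overlap. Over the whole class, however, the mirror pairs also had larger width differences, with a median of 114 bp against 44.5 bp. The 2 shares were not compared at like differences, so no trait of the edges is read from them.

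The other 26 pairs were staggered, each list reaching further on one side. In 20 of them the control peak was displaced to the 3′ side of the shFTO peak and in 6 to the 5′ side, a 3′ share of 76.9% (57.9% to 89.0%). Among the 55 staggered pairs wider in shFTO cells, the control peak was displaced to the 3′ side in 31 (56.4%, 43.3% to 68.6%), and the intervals overlap. The shFTO peak of a staggered pair reached past the control peak by a median of 50 bp. Examples of a displacement to the 3′ side were chr10:115608739-115610294 (minus strand, 1556 bp against 756 bp) and chrX:152617229-152618356 (plus strand, 1128 bp against 578 bp), with control stretches of 909 bp and 755 bp at the 3′ side and shFTO stretches of 109 bp and 205 bp at the 5′ side. The displacement was to the 5′ side in the pair on chromosome 5 described above and at chr14:24784904-24786118 (plus strand), where the control peak of 1215 bp began 837 bp earlier and the shFTO peak of 435 bp ended 57 bp later.

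The share of pairs wider in shCtrl cells varied with peak width. Of the 188 pairs whose wider peak measured under 100 bp, 12 were wider in shCtrl cells (6.38%, interval 3.69% to 10.8%). Of the 551 pairs whose wider peak measured from 100 bp to under 200 bp, 13 were wider in shCtrl cells (2.36%, interval 1.38% to 3.99%) and 471 were of equal width. The share rose to 9.84% (7.50% to 12.8%) from 200 bp to under 500 bp, 19.8% (16.0% to 24.3%) from 500 bp to under 1000 bp and 22.1% (17.5% to 27.4%) from 1000 bp to under 2000 bp. At 2000 bp or more it was 16.2% (11.0% to 23.1%), while 104 of these 142 pairs were wider in shFTO cells. Part of this order follows from the binning, because the wider peak of the pair set the bin. Among pairs of unequal width alone, the control peak was the wider one in between 16.2% (from 100 bp to under 200 bp) and 32.0% (from 500 bp to under 1000 bp) of each bin, and in no bin did it reach the count of the opposite class.

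**Figure D4:**
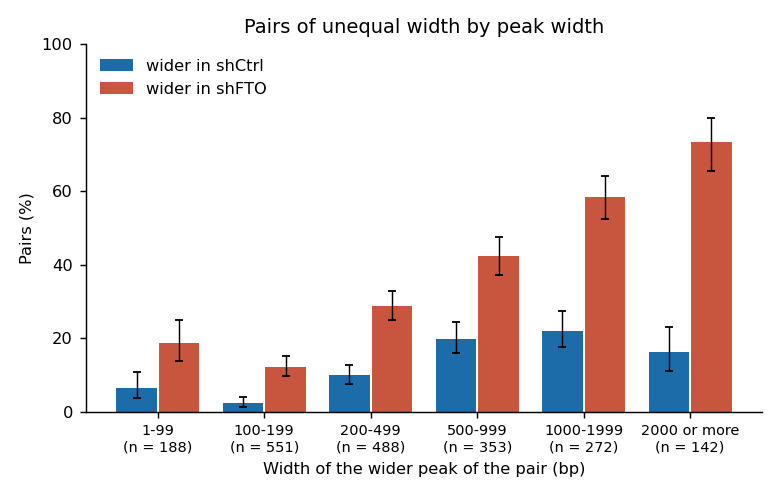
Share of pairs, in percent, that are wider in shCtrl cells (blue) or wider in shFTO cells (red) by the width of the wider peak in bp, with the number of pairs under each bin and 95% Wilson intervals as error bars. Pairs of equal width make up the remainder, the blue bars are highest from 1000 bp to under 2000 bp (22.1%), and the red bars are above the blue ones in every bin.

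A high ratio was also listed for short peaks. At chr2:160241666-160241735 (minus strand) the control peak measured 70 bp and the shFTO peak 26 bp, a ratio of 2.69 with the 3′ edge at the same base. Longer pairs with a ratio above 2 were chr3:4357896-4358949 (plus strand, 1054 bp against 463 bp) and chr3:123418948-123419852 (minus strand, 905 bp against 354 bp), both with the 5′ edge in common, and chr22:36536371-36537294 (minus strand, 924 bp against 377 bp) with the 3′ edge in common. At chr16:74483753-74485360 (minus strand, 1608 bp against 679 bp) the shFTO peak ended 837 bp short on the 3′ side and began 92 bp later.

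Each listed peak carries a score, whose scale is not given in the sources used here. Many peaks stand at exactly 3100 and have no order among themselves. The score was therefore read mainly as a percentile within its own list, where 100 is the strongest peak. The 226 control peaks had a median percentile of 72.0 (interval 64.2 to 74.8) and their shFTO partners of 61.6 (55.3 to 66.4), against 65.7 and 59.6 over all 1994 pairs. A score of 3100 or more was carried by 18 of the control peaks, by 14 of the shFTO peaks and by both peaks in 10 pairs.

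In the 10 pairs with both scores at 3100 or more, the order of the percentiles follows the number of tied peaks in each list, so these pairs were left out of the comparison of ranks. Among the other 216 pairs, the percentile was higher in the shCtrl list in 129 (59.7%, 53.1% to 66.0%). With the same omission this held for 58.6% (54.7% to 62.4%) of the pairs wider in shFTO cells and for 58.8% (55.8% to 61.7%) of the pairs of equal width. These intervals overlap, so a difference in this share between the classes was not detectable by counting. This covers the ranks alone, and the unranked scores are given below.

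The median shift of the percentile, shCtrl minus shFTO, was 5.12 points (2.13 to 8.66) in the 216 pairs, 4.40 points (3.17 to 6.09) in pairs wider in shFTO cells and 3.47 points (2.36 to 4.76) in pairs of equal width. The score itself, without ranking, was higher in the shCtrl list in 118 of all 226 pairs and the same in 9. Of the 654 pairs wider in shFTO cells, it was higher in the shCtrl list in 308 and the same in 20. Of the 1114 pairs of equal width, it was higher in the shCtrl list in 471 and the same in 64. The ranks and the scores thus gave different shares. No interval was computed for the counts by score, so the overlap seen for the ranks does not extend to them. The median score was 172.18 over the shCtrl list and 220.09 over the shFTO list. Within the 216 pairs, the width ratio and the percentile shift had a Spearman correlation of 0.080 across pairs, which come from the same 2 lists and are not independent replicates.

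**Figure D5:**
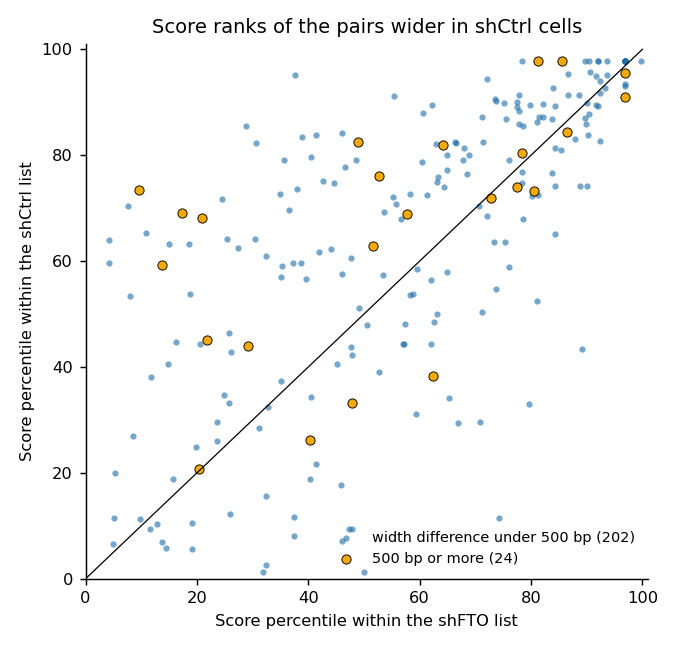
Score percentile of each of the 226 control peaks within the shCtrl list (vertical) against that of its partner within the shFTO list (horizontal), with a line of equal percentile and the 24 pairs with a width difference of 500 bp or more in yellow. Points lie above the line in 138 pairs, among them 15 of the 24 yellow ones. The 10 pairs with both scores at 3100 or more sit at the upper right. For the 9 of them with equal scores, the side of the line follows the number of ties.

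Single pairs varied widely in rank. The pair with the largest width difference, at chr5:159820155-159822546, stood at percentile 59.2 in shCtrl cells and 13.7 in shFTO cells, and chr3:123418948-123419852 fell from 69.1 to 17.4. The pair at chrX:73751811-73753763 went the other way, from 26.2 in shCtrl cells to 40.3 in shFTO cells, although its control peak was 7.81 times as wide. The pair at chr3:4357896-4358949 likewise stood at 38.3 in shCtrl cells and 62.5 in shFTO cells. In the last pair and the one on chromosome X, the wider peak had the lower rank.

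The highest control scores, all 3100, were also spread over large and small differences. The widest of these were chr5:133914184-133918018, chr6:116598278-116601280 (minus strand, 3003 bp against 2979 bp), chr5:176720833-176723713 (plus strand, 2881 bp against 2522 bp), chr16:4658884-4661524 and chr5:149675909-149678175 (minus strand, 2267 bp against 2128 bp). On chromosome 6 and in the pair starting at 176720833 the shFTO peak also scored 3100. The shFTO score was 1314.77 in the first of the list, 970.84 on chromosome 16 and 817.09 in the last.

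By chromosome, the pairs wider in shCtrl cells were found on all 24 chromosomes, from 1 on chromosome 13 and 1 on chromosome Y to 30 on chromosome 1. Where a chromosome had 20 pairs or more, their share of its pairs ran from 3.23% on chromosome 13 (1 of 31) to 18.9% on chromosome 12 (18 of 95, interval 12.3% to 28.0%). On chromosome 10 the share was 5.05% (5 of 99), with an interval from 2.18% to just under the share over all pairs. Chromosomes 12 and 10 were the 2 of 24 whose interval left that share out. The number of intervals was not allowed for, and among 24 of them some can miss the share by counting alone. Pairs wider in shFTO cells were more frequent than pairs wider in shCtrl cells on 23 chromosomes, and chromosome Y, with 3 pairs, was the exception. Chromosomes are named here as listed. The paper's authentication report on its RWPE1 cells gave X alone at amelogenin, where the reference line has X and Y. Whether the peaks listed on Y come from a Y chromosome was not tested.

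Few of the 226 pairs had a near neighbour, and few did in the other classes. On the same strand, another shCtrl peak lay within 1000 bp of 5 of them (2.21%, interval 0.949% to 5.07%) and another shFTO peak within 1000 bp of 9 (3.98%, 2.11% to 7.39%). The shares were 3.98% and 4.13% in pairs wider in shFTO cells, and 3.41% and 3.50% in pairs of equal width. The median distance to the next shFTO peak was 33465.5 bp, close to the 30564.5 bp of pairs wider in shFTO cells, while pairs of equal width had one at a median of 12480.5 bp. None of the 226 had another of the 226 within 5000 bp on its strand, and 4 had a pair wider in shFTO cells there. Within 20000 bp, 6 of the 226 lay in 3 couples. One couple was on chromosome 14, where chr14:24774144-24775974 (1831 bp against 1633 bp) lay 8929 bp before the pair at 24784904 described above. The other couples were chr17:45900753-45901824 with chr17:45915182-45915816 (differences of 67 bp and 57 bp, minus strand) and chr1:44396322-44396837 with chr1:44412505-44413356 (28 bp and 8 bp, plus strand).

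Overlapping peaks with more than 1 partner were outside the rule and formed 21 groups. In 17 of them 1 shFTO peak spanned several control peaks, and in 3 of them 1 control peak spanned several shFTO peaks. The summed control peaks were longer in 2 groups, at chr17:7571720-7573008 (1289 bp against 1063 bp) and chr21:45748827-45750209 (1046 bp against 939 bp), and the summed shFTO peaks were longer in 19.

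The genome and gene annotation of hg19 were not used here, so no gene, transcript region or sequence motif was assigned to a pair. The lists also hold no expression values, so neither the knockdown of FTO nor markers of prostate epithelium were checked in them. Read depth is unknown, since the lists hold no read counts, and its part in the widths was not tested.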

How the data were processed

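MeRIP-seq of RWPE1 cells gave 1 IP and 1 input library in each of 2 conditions. The submitters' processing notes name cutadapt 1.9.3, HISAT2 and hg19. The deposited lists carry peak names as MACS writes them, and the caller's settings and the filter on peaks are not given in the sources used here. The files have no header, so start and end were read as BED positions in bp, and starts are printed 1-based. The score column, as deposited by the authors, was ranked within its list, with mean ranks for ties.

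Peaks were paired by an overlap of at least 1 bp in Python 3.11.15 with pandas 2.3.3 and numpy 2.4.6. Intervals came from SciPy 1.17.1 and plots from matplotlib 3.10.9. The pairing was checked on simulated lists. No test between conditions was made, because each had 1 list. The members, lists and rules were chosen with earlier results of these data known. Named pairs were the 10 largest width differences, the 10 largest ratios, the 5 highest control scores with ties by width and the 5 smallest differences with ties by position. Pairs printed outside this rule, the staggered ones and those with a near neighbour, were picked after their values were seen.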

Additional observations from a re-analysis of the deposited data

How the results depend on the processing

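Under the 8 alternatives of the pairing that were run, the number of pairs wider in shCtrl cells stayed within 1.5 times 226 in all but 2, which keep fewer pairs by construction. Restricting both lists to their upper 50% by score left 121 pairs, and asking for a control peak at least 25% wider left 69. Reciprocal overlap of at least 50% gave 209, peaks below a score of 3100 gave 204, and a width difference of at least 10 bp gave 177. Requiring an overlap of 50% of the shorter peak and merging peaks within 100 bp each gave 226, of which 224 were the same pairs, and requiring the same strand gave the same 226. The median difference and ratio, the nested share, the share with only the 3′ edge differing and the median score percentiles stayed within the intervals of the reported values under each overlap, strand and score-cap alternative run for them. Leaving out pairs with both scores at 3100 or more, chosen after seeing the data and used in the report, moved the share with the higher shCtrl percentile from 61.1% to 59.7% and the median shift from 4.39 to 5.12 points. Keeping only pairs that differed by at least 50 bp, also chosen after seeing the data, left the nested share, the 3′ share and both median percentiles within those intervals as well.

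No paired analysis was possible because neither condition was repeated, and no replicate was left out. Widths in exonic bases, DRACH motif densities and transcript regions were not run, since they need an hg19 genome and annotation, which were not used here. Depth, which is unknown, limits how far the position of an edge can be read.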
